A study of Mus musculus with 50 samples.

Results

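RNA sequencing counts were compared between LSK stem cells and GMP progenitors of Flt3 mutant mice at 2 weeks. The comparison rests on 6 of the 50 samples of the series, 3 LSK and 3 GMP libraries, taken by the labels' genotype (Flt3), time (2 weeks) and cell type. The 3 replicates carry the same code number in both sorts, so each LSK library has a GMP library of the same code. The code was taken as the animal, which the labels do not say. All 6 libraries carry the genotype label Flt3, which names no allele. The labels say that mutations were switched on with Cre, Dre or Flp recombinase, without saying which enzyme was used in which mouse or from which event the weeks are counted. Sets used only to show where the 2-week mice differ were 18 Flt3 libraries at 4, 6 and 8 weeks (3 LSK and 3 GMP each) and 6 WT libraries at 4 weeks. The WT mice have another code series and no 2-week time point, so genotype, code series and time cannot be told apart in any contrast with them.

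LSK cells are the lineage-negative, Sca-1-positive, Kit-positive fraction of blood-forming tissue, which holds stem cells and multipotent progenitors. GMPs, the granulocyte-macrophage progenitors, are a later Kit-positive stage that makes neutrophils and monocytes, and the same gate can hold precursors of basophils, mast cells and eosinophils. FLT3 is a receptor tyrosine kinase of multipotent, lymphoid-primed and dendritic progenitors. Activating mutations of it are common in acute myeloid leukaemia and signal through STAT5 and the RAS-MAPK cascade.

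Total counts ran from 624296 to 8249135 over the 3 GMP libraries and from 826477 to 1383972 over the 3 LSK libraries, with 11255 to 15762 genes detected. The shallowest was GMP replicate 2 and the deepest GMP replicate 3. Mitochondrially encoded genes took 0.236% to 0.345% of counts. The 10 most abundant genes took 11.4% to 19.9% of counts in the 2-week libraries, against 4.1% to 9.2% in the others except a near-empty GMP library at 8 weeks, which held 1942 counts. Levels are given in CPM, a gene's count scaled to its library's total count. Differences are log2 fold changes, LSK minus GMP, with a standard error (SE) from edgeR's quasi-likelihood fit over 30 libraries, and adjusted p is the Benjamini-Hochberg value over the 10287 genes tested.

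Before any comparison, several gene groups set the 2-week libraries apart from most others. Ranges of levels at other times leave out the near-empty library, in which single counts weigh heavily (10810 CPM for the basophil and mast cell list, 2575 CPM for Mcpt8 and 514.9 CPM for Ets1) and which stays in the 30-library fit. The 25 listed basophil and mast cell genes summed to 71180, 75100 and 62650 CPM in the 2-week GMP libraries (replicates 1, 2 and 3). The sums were 3838 to 5811 CPM in the later Flt3 GMP libraries and 4726 to 5506 CPM in WT GMPs. Prss34 (31820 to 44440 CPM) and Mcpt8 (20700 to 22460 CPM) made up most of the 2-week sums, and a minor part of the later and WT sums. Immunoglobulin genes (152 symbols) took 5.6%, 2.77% and 8.19% of counts in the 2-week LSK libraries, and at most 0.0449% in the later Flt3 LSK libraries and 0.263% in WT LSK. The 10 MHC class II genes, which present antigen, were high in both sorts at 2 weeks, with 24170 to 37200 CPM in GMPs and 15030 to 27150 CPM in LSK, against 1475 to 15290 CPM in the later Flt3 libraries and 466 to 1239 CPM in the WT libraries. The 16 early response genes, which cells switch on within minutes of a stimulus or of handling, were high in both sorts as well, at 3840 to 5881 CPM in GMPs and 3222 to 4075 CPM in LSK, against 422.7 to 1222 CPM in all other libraries. The inducible heat shock genes Hspa1a and Hspa1b, near-identical copies, followed them, with Hspa1a at 424.7 to 637.8 CPM in 2-week GMPs and 219 to 354.9 CPM in 2-week LSK, and at most 121.2 CPM elsewhere. Dendritic cell genes summed to 2756 to 4161 CPM in 2-week GMPs and at most 1136 CPM in other GMPs. In LSK they summed to 2294 to 3498 CPM at 2 weeks and 451.2 to 2541 CPM in the other libraries. In bulk samples, fewer cells of a type and less RNA per cell cannot be told apart. Whether other cells within the gates, handling of the cells, the library kit (2 kits are named, without saying which served which sample) or the animals account for these levels was not tested.

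**Figure D1:**
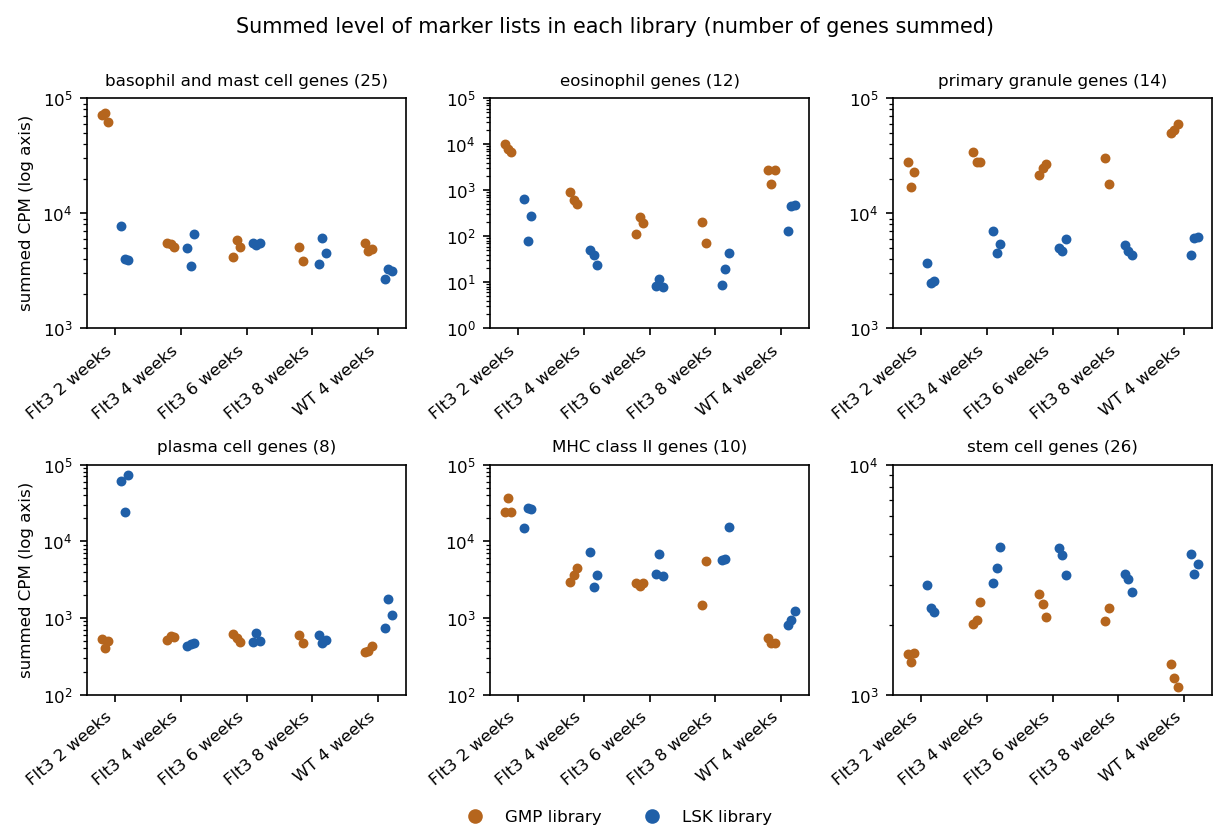
Summed CPM (log axis) of 6 gene lists in each GMP and LSK library of the Flt3 mice at 2, 4, 6 and 8 weeks and of WT mice at 4 weeks; each point is 1 library, and the near-empty 8-week GMP library is left out. The 2-week GMP libraries stand above the other GMP libraries for basophil and mast cell genes (62650 to 75100 CPM), and the 2-week LSK libraries stand above the other LSK libraries for plasma cell genes (24430 to 72320 CPM).

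The genes that mark the gates were read first. Ly6a, which encodes Sca-1, was at 7.47, 14.4 and 5.58 CPM in GMP replicates 1, 2 and 3 and at 379.9, 205.2 and 343 CPM in the LSK libraries, a log2 difference of 5.35 ± 0.45 (SE; edgeR adjusted p = 8.47e-09). Fcgr3, the low-affinity IgG receptor that marks GMPs, was at 483.9, 315.6 and 361.4 CPM in GMPs and at 26.6, 8.67 and 3.66 CPM in LSK. Both genes separated the sorts without overlap in the direction of the gate, so these values describe the sort and are no finding. Kit, the stem cell factor receptor of both gates, did not pass the test (-0.54 ± 0.24; edgeR adjusted p = 0.217).

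Flt3 itself was at 106.3, 139.4 and 137.2 CPM in GMPs and at 227.5, 250 and 195.7 CPM in LSK. Every LSK library was above every GMP library, and the log2 difference was 0.70 ± 0.16 (edgeR adjusted p = 0.00233). The call was lost without GMP replicate 1 (0.57, adjusted p = 0.0539) and with DESeq2 (0.67, adjusted p = 0.0755); over 22 alternatives the difference ran from 0.57 to 0.82. In WT mice at 4 weeks Flt3 was at 16.8 to 28.2 CPM in GMPs and 159.7 to 219.7 CPM in LSK, a difference of 2.68 (edgeR adjusted p = 6.28e-16). The 2-week difference was smaller than that of WT by -1.99 ± 0.25 on the log2 scale (edgeR adjusted p = 1.64e-07), and apart from the near-empty library the Flt3 GMP libraries of every time were above all WT GMP libraries. Counts by gene do not separate mutant from normal Flt3 transcripts.

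Npm1 and Dnmt3a, which are mutated in other mice of the series, did not differ past the threshold between LSK and GMP in the main fit (0.47 ± 0.17, edgeR adjusted p = 0.0753, and 0.24, edgeR adjusted p = 0.793). For Npm1 every LSK library was above every GMP library (439.9 to 496.1 against 246.7 to 340.4 CPM). It passed with the near-empty library left out, in edgeR (0.47, adjusted p = 0.0226) and DESeq2 (0.46, adjusted p = 0.0234). It also passed in edgeR with the 2-week libraries alone (0.48, adjusted p = 0.0479) and with library size alone (0.59, adjusted p = 0.00285). DESeq2 on all libraries did not call it, and over 22 alternatives it ran from 0.37 to 0.59. Cd34 (0.64 ± 0.20; edgeR adjusted p = 0.0326), the sialomucin found on both fractions, and Cd48 (0.52 ± 0.16; edgeR adjusted p = 0.0393), a SLAM-family marker of multipotent progenitors beyond the stem cell, were higher in LSK. Both calls were fragile. With single libraries left out, edgeR kept Cd34 only without GMP replicate 1 (adjusted p otherwise 0.0623 to 0.301) and Cd48 only without LSK replicate 3 (otherwise 0.0543 to 0.166), while the differences over 22 alternatives ran from 0.40 to 0.85 and from 0.46 to 0.65. With the code number as a replicate block, Cd48 was at 0.51 with an adjusted p of 0.0556. Slamf1, the SLAM marker of stem cells, was at 4.84, 0 and 1.83 CPM in LSK and did not pass the test.

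Of the 10287 genes, 782 (7.6%) differed between LSK and GMP at an adjusted p under 0.05, with 367 (3.57%) higher and 415 (4.03%) lower in LSK. The median log2 difference over all genes tested was -0.00. In 2420 genes (23.5%) the 3 LSK and 3 GMP libraries did not overlap, and 732 of the 782 called genes were among them. The labels do not say that the replicates are separate cultures or pools, so the p-values measure a spread between libraries only. That spread was estimated within the groups of all 30 libraries, not from these 3 libraries a sort alone. The plot of all genes shows the shape of the difference: the far ends were taken up by basophil and eosinophil genes below and by immunoglobulin genes above.

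**Figure D2:**
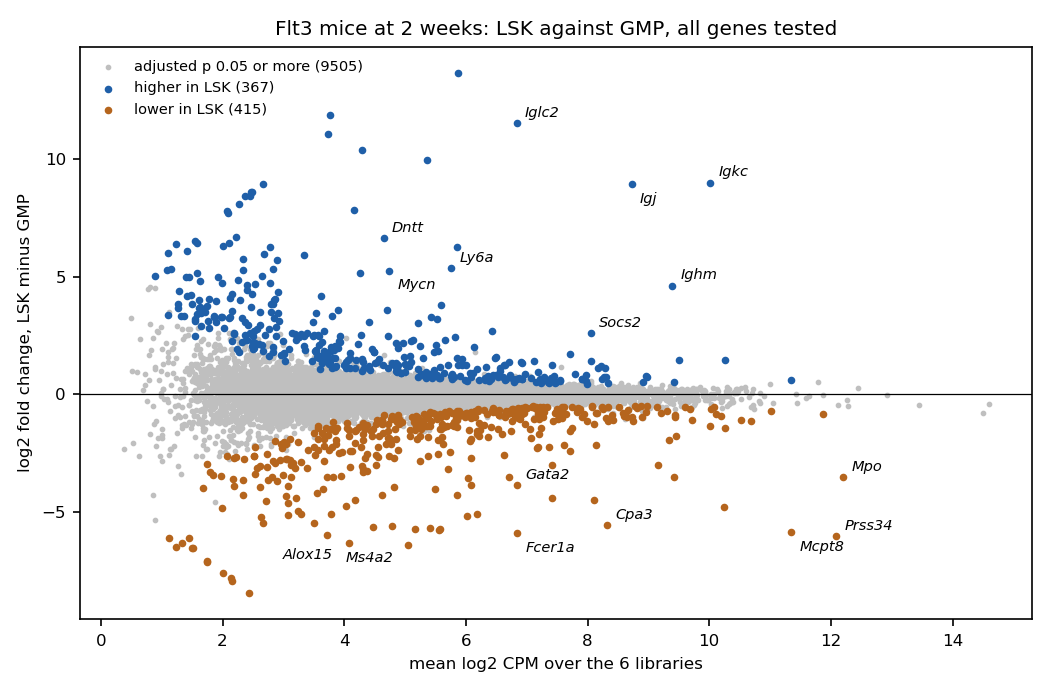
Log2 fold change, LSK minus GMP at 2 weeks (vertical axis), against the mean log2 CPM over the 6 libraries (horizontal axis); each point is 1 of 10287 genes. Blue points are the 367 genes higher in LSK, brown points the 415 lower, and grey points the rest; the named genes at the lower edge are granulocyte genes such as Mcpt8 and Prss34 and those at the upper edge include Igkc and Igj.

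Basophil and mast cell genes were far higher in GMPs. These cells carry the high-affinity IgE receptor and store proteases and histamine in granules. Of the 17 list members tested, 15 were lower in LSK and 1 was higher (Ifitm1, not called without GMP replicate 1, 2 or 3 or LSK replicate 1 or 2), with a median of -3.87. The list also holds Srgn and Fcer1g, which many blood cells express. Among the other 8 of the 25 members, Mcpt4, Tpsb2 and Tpsab1, proteases of mature mast cells, were at 0 counts in all 6 libraries.

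Sequences just before the start of 4 of these genes and of 2 genes at the other end of the comparison are shown because these genes lie at the ends of the comparison and move together in their groups. They come from RefSeq's promoter table (GRCm38.p6), each holds the 250 bases before the annotated start on the strand of the gene, and capitals mark a match to a searched motif. The windows are Prss34 at chr17:25298144-25298393 (plus strand), Ms4a2 at chr19:11623720-11623969 (minus strand), Fcer1a at chr1:173227230-173227479 (minus strand), Cpa3 at chr3:20242182-20242431 (minus strand), Igj (Jchain in RefSeq) at chr5:88527898-88528147 (minus strand) and Dntt at chr19:41029025-41029274 (plus strand). No annotated exon overlaps these windows.
Prss34: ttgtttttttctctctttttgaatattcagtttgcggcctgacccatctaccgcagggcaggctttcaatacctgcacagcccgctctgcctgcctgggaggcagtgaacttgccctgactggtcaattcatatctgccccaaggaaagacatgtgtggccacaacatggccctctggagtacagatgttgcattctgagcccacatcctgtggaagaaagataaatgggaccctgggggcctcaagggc
Ms4a2: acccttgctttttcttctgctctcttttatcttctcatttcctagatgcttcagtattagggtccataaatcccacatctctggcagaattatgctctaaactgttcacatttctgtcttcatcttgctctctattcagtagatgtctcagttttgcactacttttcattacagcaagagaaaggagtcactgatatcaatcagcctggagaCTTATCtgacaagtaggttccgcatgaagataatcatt
Fcer1a: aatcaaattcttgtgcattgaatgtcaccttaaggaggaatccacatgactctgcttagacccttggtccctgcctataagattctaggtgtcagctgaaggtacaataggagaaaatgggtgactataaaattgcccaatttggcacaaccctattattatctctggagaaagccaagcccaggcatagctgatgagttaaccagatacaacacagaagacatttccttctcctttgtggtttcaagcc
Cpa3: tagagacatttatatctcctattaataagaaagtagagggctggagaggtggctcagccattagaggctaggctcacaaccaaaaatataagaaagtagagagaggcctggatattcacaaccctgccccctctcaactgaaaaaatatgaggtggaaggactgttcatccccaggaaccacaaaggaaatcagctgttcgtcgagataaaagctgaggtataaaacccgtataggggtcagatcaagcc
Igj: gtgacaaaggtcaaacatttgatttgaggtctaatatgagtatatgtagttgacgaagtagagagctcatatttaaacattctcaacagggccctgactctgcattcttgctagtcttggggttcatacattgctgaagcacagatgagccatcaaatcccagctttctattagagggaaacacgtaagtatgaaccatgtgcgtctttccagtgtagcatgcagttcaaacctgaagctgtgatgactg
Dntt: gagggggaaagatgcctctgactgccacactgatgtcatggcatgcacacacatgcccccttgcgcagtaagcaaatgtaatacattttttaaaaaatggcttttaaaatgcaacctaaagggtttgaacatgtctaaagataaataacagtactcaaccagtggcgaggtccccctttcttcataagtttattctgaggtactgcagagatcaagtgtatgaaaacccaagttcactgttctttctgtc
The motifs were GATAAG (the GATA factor site), TTGCGCAA (a palindromic C/EBP site), CACCTG (an E-box) and TTCNNNGAA (the STAT5 site), each searched on both strands. Among the 6 windows 1 match was found, GATAAG on the reverse strand of the Ms4a2 window, read as CTTATC from 38 to 33 bases before the start. Over the 32851 promoters of the table, windows of the same length held GATAAG in 6.55%, TTGCGCAA in 0.164%, CACCTG in 17.2% and TTCNNNGAA in 7.02%. A match describes letters only.

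Proteases gave the highest levels. Mcpt8, the basophil granule protease used to mark that lineage, was at 20700, 22460 and 21210 CPM in GMP replicates 1, 2 and 3, and at 838.5, 157.5 and 235.1 CPM in LSK. The log2 difference was -5.87 ± 0.45 (edgeR adjusted p = 3.23e-09). Prss34, a serine protease of basophils and mast cells, was at 41060, 44440 and 31820 CPM in GMPs and at 1419, 230.5 and 345.7 CPM in LSK (-6.04 ± 0.70; edgeR adjusted p = 2.77e-06). The 3 GMP libraries lay close together, while LSK replicate 1 was the highest LSK library for both genes.

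Cpa3, the carboxypeptidase of mast cell granules that basophil and mast cell precursors also express, was at 2362, 2177 and 2191 CPM in GMPs and at 108.9, 28.9 and 27.4 CPM in LSK (-5.57 ± 0.43; edgeR adjusted p = 5.99e-09). Hdc makes histamine. It was at 494.8, 272.3 and 430.1 CPM in GMPs and at 20.6, 5.78 and 15.6 CPM in LSK (-5.06 ± 0.30; edgeR adjusted p = 8.2e-15). For both genes the groups were far apart, and LSK replicate 1 again held the most.

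The IgE receptor genes moved with the proteases. Fcer1a encodes the IgE-binding chain and Ms4a2 the beta chain of the same receptor. Fcer1a was at 889.6, 865 and 1228 CPM in GMPs and at 52, 3.61 and 8.23 CPM in LSK (-5.88 ± 0.52; edgeR adjusted p = 4.06e-07). Ms4a2 was at 294.2, 294.7 and 296.6 CPM in GMPs and at 10.9, 2.17 and 0 CPM in LSK (-6.42 ± 0.51; edgeR adjusted p = 2.14e-10). The spread among the GMP libraries was small for Ms4a2, and LSK replicate 2 or 3 was the lowest for each receptor gene.

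Cd200r3, an activating receptor of basophils and mast cells, was at 312.2 to 358 CPM in GMPs and 1.45 to 15.7 CPM in LSK (-5.75 ± 0.54; edgeR adjusted p = 1.08e-07). Cyp11a1, the enzyme that starts steroid synthesis from cholesterol, lies outside the list and was at 243.7, 253.1 and 184.9 CPM in GMPs against 8.47, 3.61 and 2.74 CPM in LSK (-5.73 ± 0.38; edgeR adjusted p = 3.43e-16). Csrp3, a LIM-domain protein known from muscle, was at 162.1, 174.6 and 166.3 CPM in GMPs and 9.68, 1.45 and 1.83 CPM in LSK (-5.59 ± 0.59; edgeR adjusted p = 1.06e-07). These genes ranked with the receptor genes among the 12 largest falls.

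The count of 15 lower genes in the basophil and mast cell list was between 13 and 15 with single libraries left out. In a fit of the 2-week libraries alone with a replicate block, however, Mcpt8 (-6.21, adjusted p = 0.109), Prss34 (-6.43, adjusted p = 0.116), Fcer1a (-5.96, adjusted p = 0.138) and Epx (-5.74, adjusted p = 0.0926) lost the call while their fold changes stayed as large. LSK replicate 1 held 7682 CPM of the list's genes in all, and LSK replicates 2 and 3 held 3993 and 3935 CPM.

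**Figure D3:**
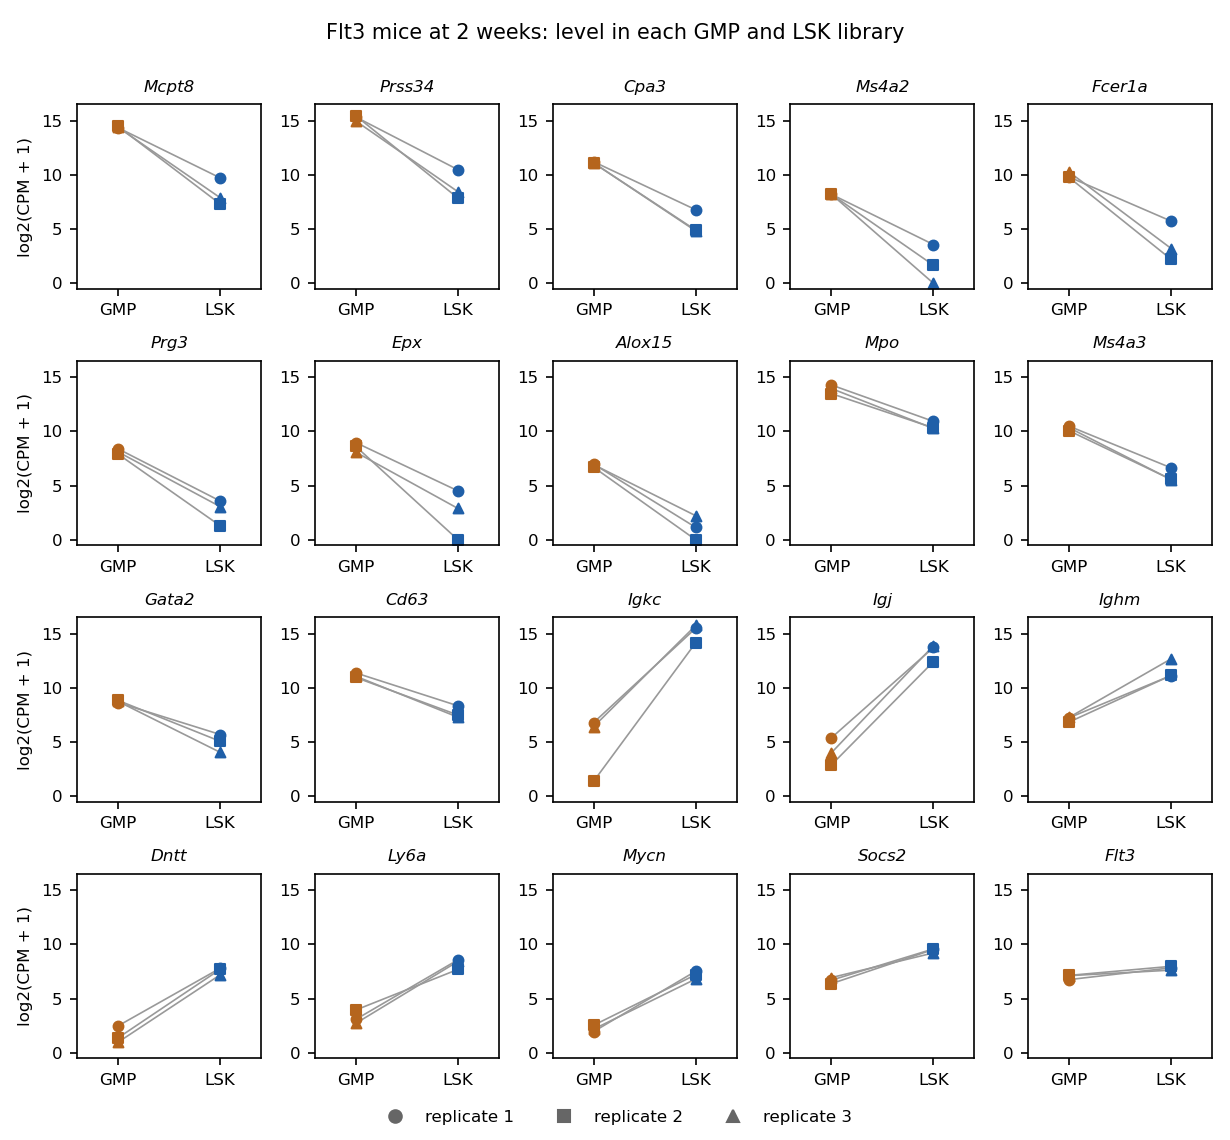
Levels of 20 genes as log2(CPM + 1) in the 3 GMP and 3 LSK libraries at 2 weeks; points are libraries, and a line joins the 2 libraries of 1 code number. The basophil and eosinophil genes drop from GMP to LSK along all 3 lines, Igkc, Igj, Dntt and Mycn climb along all 3, and Flt3 climbs by a smaller step.

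Eosinophil genes followed the same direction. Of the 9 members tested, 8 were lower in LSK and none higher, with a median of -4.80, and Ear10 was at 0 counts in all 6 libraries. Their summed level was 10270, 7793 and 6851 CPM in GMPs and 636.4, 80.2 and 271.6 CPM in LSK. Prg3, a homologue of the major basic protein of eosinophil granules, was at 332.7, 237.1 and 273.4 CPM in GMPs and at 10.9, 1.45 and 7.32 CPM in LSK (-5.69 ± 0.60; edgeR adjusted p = 8.49e-07). Epx, the eosinophil peroxidase, was at 495.4, 387.6 and 268.5 CPM in GMPs and at 21.8, 0 and 6.4 CPM in LSK (-5.71 ± 0.71; edgeR adjusted p = 1.24e-05). Ear6, an eosinophil-associated ribonuclease with close paralogs among which reads can be split, was also lower (-5.62 ± 0.98; edgeR adjusted p = 0.00146), and lost the call with DESeq2 (-5.44, adjusted p = 0.0889).

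Arachidonate and leukotriene genes were mixed. Of 11 tested members, 5 were lower and 1 was higher in LSK (median -0.46). Alox5, which starts leukotriene synthesis, was at 242.5, 235.5 and 226 CPM in GMPs and at 20.6, 10.1 and 10.1 CPM in LSK (-4.29 ± 0.36; edgeR adjusted p = 7.92e-13). Alox15, a lipoxygenase of eosinophils that is counted in that list too, was at 125.3, 102.5 and 120.9 CPM in GMPs and at 1.21, 0 and 3.66 CPM in LSK (-6.31 ± 0.59; edgeR adjusted p = 2.64e-11). Ltc4s, the enzyme that joins glutathione to leukotriene A to give the cysteinyl leukotrienes, was the exception. It was at 1.15, 0 and 1.82 CPM in GMPs and at 15.7, 10.1 and 11.9 CPM in LSK (2.93 ± 0.61; edgeR adjusted p = 5.72e-04).

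The neutrophil programme of GMPs was present as well. Primary granule genes, which promyelocytes pack with peroxidase and elastase-like proteases, were lower in LSK in 13 of 14 tested members and higher in none, with a median of -2.57. Mpo, the myeloperoxidase, was at 19790, 11410 and 15790 CPM in GMPs and at 1931, 1272 and 1230 CPM in LSK (-3.53 ± 0.28; edgeR adjusted p = 6.9e-13). Ms4a3, a membrane protein used to trace GMP descendants, was at 1422, 1059 and 1287 CPM in GMPs and at 98, 46.2 and 45.7 CPM in LSK (-4.48 ± 0.38; edgeR adjusted p = 1.37e-08). Hp (haptoglobin) was at 256.9, 190.6 and 180.7 CPM in GMPs and 25.4, 14.5 and 20.1 CPM in LSK (-3.55 ± 0.27; edgeR adjusted p = 2.78e-13).

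The levels of these granule genes were lower in the 2-week GMPs than in WT GMPs: the list summed to 27730, 16800 and 22890 CPM against 49420 to 60100 CPM. The groups did not overlap, and this contrast of sums was not tested. The later Flt3 GMP libraries, at 17990 to 33810 CPM, were below the WT libraries as well. Of 8 late neutrophil genes tested, 1 was higher and 2 were lower; the lower count was 1 without GMP replicate 3, LSK replicate 2 or LSK replicate 3, and the higher count 2 without LSK replicate 1 or 2. The markers of mature neutrophils Ly6g and Stfa1 were at 0 counts in all 6 libraries. Ltf, the lactoferrin of secondary granules, was the higher member (4.73; edgeR adjusted p = 6.28e-04). Of 18 monocyte and macrophage genes, 3 were lower (among them Lyz2, lysozyme, at -0.79 ± 0.18, edgeR adjusted p = 0.00142) and 1 was higher, a count that was 0 without GMP replicate 1, GMP replicate 2 or LSK replicate 2.

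Transcription factors of these lineages were lower in LSK in 8 of 17 tested members of the myeloid fate list, and 1 was higher (0 without GMP replicate 2, GMP replicate 3 or LSK replicate 1), with a median of -0.61. Gata2, which drives mast cell and basophil as well as stem cell programmes, was at 396.5, 456.5 and 428.5 CPM in GMPs and at 50.8, 32.5 and 15.6 CPM in LSK (-3.87 ± 0.29; edgeR adjusted p = 1.13e-11). Gata1, a GATA factor of the erythroid, mast cell and eosinophil lineages, was at 70.1, 59.3 and 45.3 CPM in GMPs and at 12.1, 5.78 and 6.4 CPM in LSK (-3.01 ± 0.39; edgeR adjusted p = 6.23e-08). Cebpa, which starts granulocyte differentiation, was at 37.4, 28.8 and 27.3 CPM in GMPs and at 4.84, 7.23 and 5.49 CPM in LSK (-2.48 ± 0.39; edgeR adjusted p = 4.88e-06). Cebpe, which follows it at the promyelocyte stage, had 3 counts over the LSK libraries, and the GMP level was 25.4 times the LSK level (95% counting interval 8.6 to 124.1).

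Secretory granule genes that many cell types share were lower in LSK in 6 of 16 tested members and higher in none (median -0.62). Cd63, a tetraspanin of granule and lysosome membranes, was at 2647, 1980 and 2139 CPM in GMPs and at 323.1, 178.5 and 155.5 CPM in LSK (-3.51 ± 0.25; edgeR adjusted p = 1.14e-12). Srgn, the serglycin core protein that holds proteases in granules, was at 2007, 1856 and 1939 CPM in GMPs and at 837.3, 724.7 and 777.4 CPM in LSK (-1.44 ± 0.17; edgeR adjusted p = 4.56e-09). Both genes kept the sorts apart in all 3 code pairs, with a much smaller step for Srgn.

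Receptors and adhesion genes were mixed. Of 20 cytokine receptor genes 4 were higher and 6 lower in LSK; without GMP replicate 1 the higher count was 1, and without LSK replicate 3 it was 2. The 6 lower became 3 without LSK replicate 1 or LSK replicate 3. Csf2rb, the shared beta chain of the IL-3, IL-5 and GM-CSF receptors, was at 120.1, 150.6 and 127.7 CPM in GMPs and at 43.6, 58.5 and 58.5 CPM in LSK (-1.40 ± 0.22; edgeR adjusted p = 3.09e-06). Il4ra, the interleukin-4 receptor chain, was higher in LSK (1.22 ± 0.29; edgeR adjusted p = 0.00297).

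Itga2b stood out among the adhesion genes. It encodes the alpha IIb integrin of platelets, which early megakaryocyte, mast cell and stem cell progenitors also carry. It was at 159.2, 190.6 and 168.7 CPM in GMPs and at 25.4, 6.5 and 6.4 CPM in LSK (-4.01 ± 0.33; edgeR adjusted p = 2.64e-13). Of the 12 megakaryocyte and platelet genes tested, Itga2b and Cd9 (-0.95 ± 0.16; edgeR adjusted p = 2.05e-05) were lower and none was higher (1 higher without LSK replicate 2), with a median of -0.44.

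At the other end, immunoglobulin and plasma cell genes were the most raised in LSK. All 7 tested members of the plasma cell list were higher in LSK, with a median of 7.83. Plasma cells are the antibody factories of the B lineage, which the lineage depletion of an LSK sort is meant to leave out. Igkc, the kappa light chain constant region, was at 109.8, 1.6 and 84.5 CPM in GMPs and at 46140, 18240 and 54920 CPM in LSK (8.99 ± 0.98; edgeR adjusted p = 1.1e-06). Igj, the joining chain of IgM and IgA, was at 40.8, 6.41 and 15 CPM in GMPs and at 13490, 5444 and 15030 CPM in LSK (8.93 ± 0.66; edgeR adjusted p = 3.23e-09). LSK replicate 2 was the lowest of the 3 LSK libraries for both, yet far above each GMP library.

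The heavy chain gene Ighm was at 150, 113.7 and 153.5 CPM in GMPs and at 2246, 2262 and 6532 CPM in LSK (4.61 ± 0.47; edgeR adjusted p = 3.95e-07). Iglc2, a lambda constant region, was at 1.72, 0 and 2.06 CPM in GMPs and at 4460, 4614 and 8831 CPM in LSK (11.53 ± 0.82; edgeR adjusted p = 1.91e-09), but it is near-identical to Iglc3 and reads may be split between them. Iglc3 had 2 counts over the GMP libraries, and Ighg1, an IgG constant region, had 3. The LSK level of Ighg1 was 1623 times the GMP level (95% counting interval 554.4 to 7881), and its call was lost in the fit of the 2-week libraries alone (adjusted p = 0.086) and with DESeq2. Immunoglobulin genes as a family share sequence, so single values are uncertain.

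Plasma cell genes outside the immunoglobulin loci were raised with them. Mzb1, a chaperone for antibody assembly (listed as 2010001M09Rik), was at 0, 0 and 1.21 CPM in GMPs and at 237.2, 106.2 and 332.9 CPM in LSK (7.83 ± 0.61; edgeR adjusted p = 1.08e-11). Sdc1, the surface syndecan CD138 that marks plasma cells, was at 0, 3.2 and 1.46 CPM in GMPs and at 25.4, 11.6 and 24.7 CPM in LSK (3.84 ± 0.81; edgeR adjusted p = 6.29e-04). The order of the LSK libraries was the same for Igkc and Mzb1, with replicate 3 highest and replicate 2 lowest. Of the 8 tested T, NK and mature B cell genes 4 were higher and 1 was lower in LSK. The higher count was 1 without replicate 3 of both sorts. The list's summed level was higher in GMPs (1152 to 1646 CPM) than in LSK (510.8 to 756.4 CPM). Most of each sum was 1 gene, Nkg7, at 1565, 1072 and 1137 CPM in GMPs and 409, 339.6 and 444.5 CPM in LSK. The sums therefore mainly follow Nkg7 and do not show the direction of the other members. Higher members included Cd3g, a T cell receptor subunit with 1 count over the GMP libraries, and Klrb1c, an NK cell receptor (3.07 ± 0.74, edgeR adjusted p = 0.0035). The part of such cells in the rises was not tested.

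Lymphoid priming genes are those that multipotent progenitors switch on before B and T lineage choice. Of 10 tested members 5 were higher and 1 was lower in LSK, with a median of 2.12. The higher members include Ighm, given above with the immunoglobulin genes. Without GMP replicate 3 the higher count was 3. Dntt, the terminal transferase of early lymphoid progenitors, was at 4.6, 1.6 and 0.97 CPM in GMPs and at 221.4, 206.7 and 145.4 CPM in LSK (6.65 ± 0.39; edgeR adjusted p = 2.55e-14). The LSK libraries lay closer together than for the immunoglobulin genes. Il12a, an interleukin-12 subunit, was at 23, 22.4 and 18.3 CPM in GMPs and at 125.8, 110.6 and 54 CPM in LSK (2.11 ± 0.24; edgeR adjusted p = 3.14e-09).

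Ly6d, a surface marker of B-committed lymphoid progenitors, was at 6.32, 12.8 and 3.39 CPM in GMPs and at 447.7, 384.4 and 448.2 CPM in LSK (6.28 ± 0.56; edgeR adjusted p = 4.15e-08). Il7r, the receptor that B and T precursors need, was at 1.15, 4.81 and 2.3 CPM in GMPs and at 14.5, 7.95 and 11.9 CPM in LSK; the groups did not overlap, but the difference did not pass the test (2.14 ± 0.84; edgeR adjusted p = 0.131). Rag1 was at 0 counts in all 6 libraries. Siglech, a lectin of plasmacytoid dendritic cells and their precursors, was at 0, 1.6 and 0.85 CPM in GMPs and at 52, 52 and 48.5 CPM in LSK (5.91 ± 0.84; edgeR adjusted p = 7.19e-07). The dendritic cell list had 4 higher members (Flt3, Siglech, Bst2 and Tcf4) and none lower of 15 tested, while its median was -0.12.

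Stem cell genes were higher in LSK in 8 of 23 tested members and lower in 1, Gata2, with a median of 1.24. The count of 8 fell to 5 without GMP replicate 3, without LSK replicate 1, with DESeq2 and in the fit of the 2-week libraries alone. Mecom, a zinc finger factor that stem cells require, was at 0.57, 1.6 and 0.36 CPM in GMPs and at 18.2, 16.6 and 11.9 CPM in LSK (4.67 ± 0.83; edgeR adjusted p = 6.84e-05). Mycn, the Myc family member of early progenitors, was at 2.87, 4.81 and 3.52 CPM in GMPs and at 182.7, 146 and 110.7 CPM in LSK (5.25 ± 0.33; edgeR adjusted p = 2.8e-15). All LSK libraries were above all GMP libraries for both.

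All 6 tested Gimap genes, GTPases of lymphocytes and early progenitors that lie in 1 cluster, were higher in LSK (median 2.04). Gimap6 was at 32.8, 12.8 and 22.6 CPM in GMPs and at 160.9, 133.7 and 130.8 CPM in LSK (2.44 ± 0.22; edgeR adjusted p = 3.21e-12). The Hox and cofactor list had 4 higher members of 8 tested and none lower (median 0.70), and without GMP replicate 3 only 1 was called. Mn1, a transcription cofactor of leukaemia, had 0 counts over the GMP libraries and was at 12.1, 41.9 and 24.7 CPM in LSK. Against a floor of 3 counts over the GMP group its LSK level was at least 101.7-fold higher.

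Genes downstream of STAT5 and the MAPK cascade differed between the sorts in both directions. STAT5 target genes were higher in LSK in 5 of 17 tested members and lower in 2 (median 0.91), and 8 were higher with the replicate block. Without LSK replicate 1 the lower count was 1. Socs2, a feedback inhibitor of cytokine receptors that STAT5 induces, was at 102.3, 81.7 and 121.1 CPM in GMPs and at 762.3, 736.3 and 589.9 CPM in LSK (2.61 ± 0.19; edgeR adjusted p = 4.63e-15). Pim2, a survival kinase, was at 8.62, 24 and 13.6 CPM in GMPs and at 140.4, 131.5 and 134.4 CPM in LSK (3.20 ± 0.29; edgeR adjusted p = 3.36e-11). The LSK libraries were tightly grouped for Pim2.

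Id1, an inhibitor of basic helix-loop-helix factors, went the other way within the same list. It was at 93.7, 76.9 and 106.8 CPM in GMPs and at 14.5, 15.2 and 12.8 CPM in LSK (-2.84 ± 0.33; edgeR adjusted p = 4.09e-09). MAPK feedback genes had 1 higher member (Dusp5, a phosphatase that acts on ERK; 1.5 ± 0.21, edgeR adjusted p = 4.24e-07) and 2 lower of 9 tested. Ier3, an immediate early gene, was at 113.2, 128.1 and 149.5 CPM in GMPs and at 56.9, 35.4 and 33.8 CPM in LSK (-1.79 ± 0.27; edgeR adjusted p = 2.77e-06).

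Of 14 early response genes tested, which were high in both sorts, 6 were lower in LSK and none higher (median -0.49). The count was 2 without GMP replicate 2, 1 without GMP replicate 3, 2 without LSK replicate 1 and 3 without LSK replicate 3. Ier2 was the member with the smallest p (-0.88 ± 0.17; edgeR adjusted p = 1.16e-04). Ccl3, a macrophage chemokine counted with the NF-kB feedback genes, was at 167.2, 214.6 and 357.7 CPM in GMPs and at 30.3, 12.3 and 16.46 CPM in LSK (-3.85 ± 0.48; edgeR adjusted p = 3.55e-06).

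Interferon response genes were higher in LSK in 7 of 24 tested members and lower in none (median 1.30). The count was 4 without GMP replicate 1, 2 without GMP replicate 3 and 12 with the replicate block. Oasl2, an antiviral protein, was higher by 2.15 ± 0.43 (edgeR adjusted p = 5.53e-04). Bst2 (tetherin), which plasmacytoid dendritic and plasma cells also carry, was at 62.1, 65.7 and 58.9 CPM in GMPs and at 152.5, 169.1 and 150.9 CPM in LSK (1.24 ± 0.19; edgeR adjusted p = 4.46e-06).

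Growth and housekeeping lists moved little. None of the 19 G2 and M phase, 16 nucleolar, 7 mitochondrially encoded or 13 cholesterol synthesis genes passed edgeR's test in the main fit. Npm1, a nucleolar member, passed in other settings, as given above. Of 19 S phase genes 1 passed in the main fit (0 without GMP replicate 1, GMP replicate 2 or LSK replicate 1). At an unadjusted p under 0.05 the counts of these 4 lists were 0, 1, 0 and 1, and DESeq2 called none of their members on the 30 libraries and 1 nucleolar gene without the near-empty library. Glycolysis genes were lower in 2 of 13, among them Gpi1 (-0.80 ± 0.17; edgeR adjusted p = 6.72e-04), and in 1 without GMP replicate 2 or LSK replicate 1. Bcl2, the survival factor, was at 52.9, 72.1 and 63.4 CPM in GMPs and at 116.2, 127.2 and 116.2 CPM in LSK (0.84 ± 0.20; edgeR adjusted p = 0.00276), as the 1 member called of 13 in its family (2 without LSK replicate 3). Trp53inp1, a p53-induced protein, was at 2.3, 1.6 and 2.55 CPM in GMPs and at 55.7, 23.8 and 60.4 CPM in LSK (4.17 ± 0.64; edgeR adjusted p = 2.77e-06), and its LSK libraries stood in the same order as for Igkc. In simulated counts of this comparison over 9930 genes, 100 genes were changed 2-fold and 100 were changed 4-fold, none from the lowest levels. The fit recovered 44% of those changed 2-fold and 90% of those changed 4-fold, so small differences can be missed with 3 libraries a side.

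**Figure D4:**
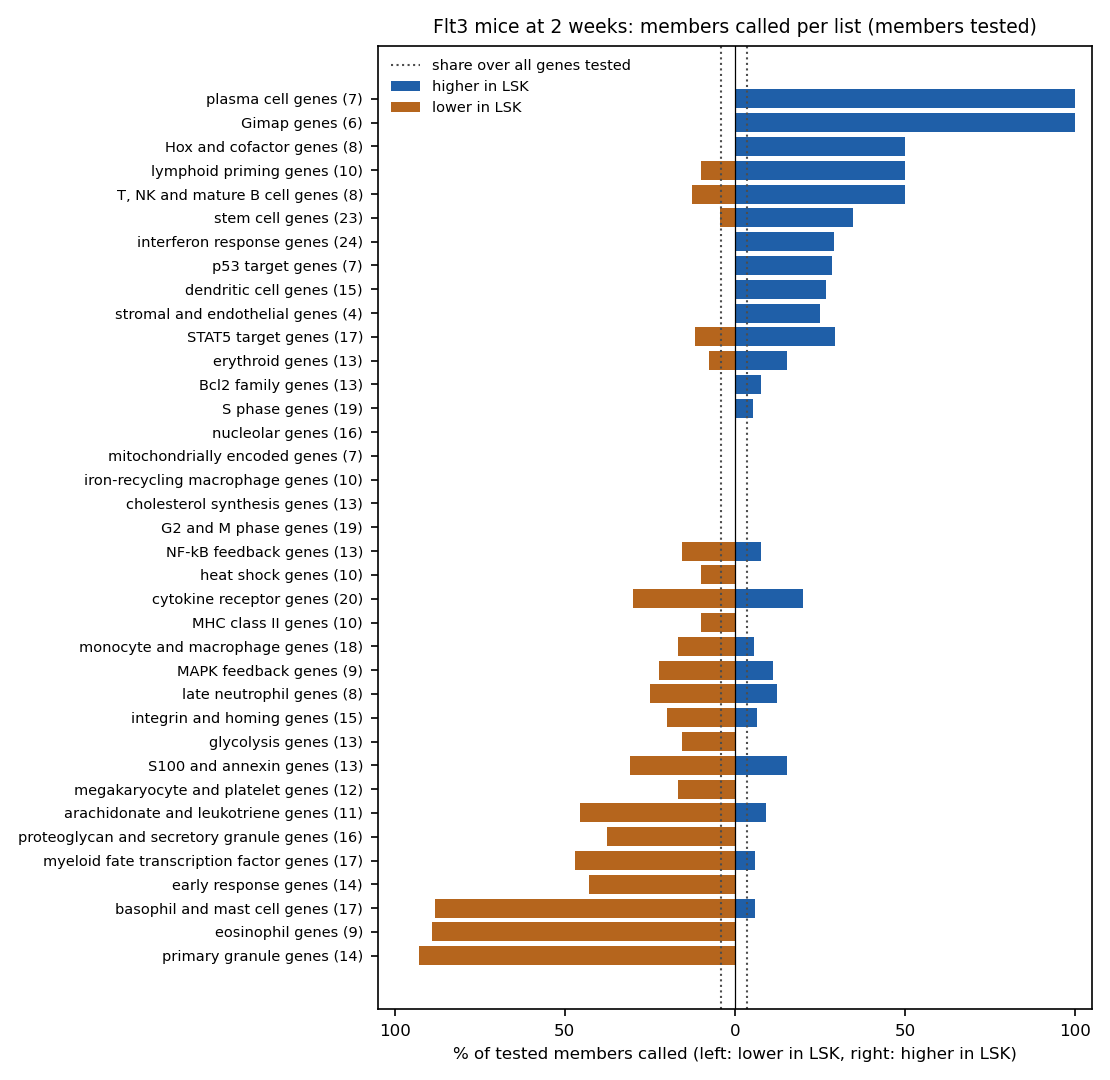
Share (percent) of the tested members of each gene list that were higher (blue) or lower (brown) in LSK than in GMP at 2 weeks at an edgeR adjusted p under 0.05. Dotted lines mark the share over all genes tested, 3.57% higher and 4.03% lower; the plasma cell and Gimap lists reach 100% higher (7 of 7 and 6 of 6), and the basophil and mast cell, eosinophil and primary granule lists are mostly lower.

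The same contrast was then set against the later Flt3 mice, to ask whether LSK and GMP differed in another way at 2 weeks than at 4, 6 and 8 weeks. At the later times together, 1569 genes (15.3%) differed between LSK and GMP, with 7.91% of genes higher and 7.34% lower in LSK. Of the 782 genes called at 2 weeks, 442 were also called later (56.5% of the 2-week calls and 28.2% of the later calls), 420 of them in the same direction. Tested directly, the LSK minus GMP difference itself differed between 2 weeks and the later mean in 297 genes (2.89%), higher at 2 weeks in 115 (1.12%) and lower in 182 (1.77%). Time, code and any difference in library making between the weeks cannot be told apart in this test.

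Basophil and mast cell genes were lower in this difference of differences in 6 of 17 tested members and higher in none. Mcpt8 ran from 20700 to 22460 CPM in 2-week GMPs and from 178.3 to 379.1 CPM in GMPs at 4, 6 and 8 weeks, while LSK held 157.5 to 838.5 CPM at 2 weeks and 81.4 to 153.7 CPM later. Its difference was lower at 2 weeks by -4.74 ± 0.47 on the log2 scale (edgeR adjusted p = 9.45e-07). Cyp11a1 was at 184.9 to 253.1 CPM in 2-week GMPs and at 1.59 to 16.8 CPM in later GMPs (-5.72 ± 0.46; edgeR adjusted p = 3.42e-13). For both genes the 2-week GMP libraries lay above the later ones, and for Mcpt8 the 2-week LSK libraries did too.

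Cpa3 was at 2177 to 2362 CPM in 2-week GMPs and at 50.1 to 233.3 CPM in later GMPs (-2.58 ± 0.52; edgeR adjusted p = 0.00515), but against 4 weeks alone the difference was -1.13 (adjusted p = 0.69; range over 34 alternatives -3.43 to -1.13). The count of 6 in the basophil list was 3 against 4 weeks alone. Prss34 was at 223.8 to 405.3 CPM in GMPs at 4 weeks and its difference of differences did not pass the test (edgeR adjusted p = 0.0846); it passed without 2-week LSK replicate 1 (-3.97, adjusted p = 0.00465), the highest LSK library for this gene, and without 8-week LSK replicate 1 (-3.21, adjusted p = 0.0363). Gata2 was at 396.5 to 456.5 CPM in 2-week GMPs against 21.3 to 75.9 CPM in later GMPs (-3.40 ± 0.35; edgeR adjusted p = 4.48e-08).

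Genes outside the lists gave the other large falls in the difference. Ets1, a transcription factor of lymphoid and progenitor cells, was at 133.5 to 164.9 CPM in 2-week GMPs and 14.5 to 21.7 CPM in 2-week LSK, while at the later times GMPs held 0.57 to 14 CPM and LSK 16.3 to 28.8 CPM (-5.23 ± 0.40; edgeR adjusted p = 1.39e-13). Aqp9, a water and glycerol channel, was at 41.4 to 49.7 CPM in 2-week GMPs and at 0 to 3.49 CPM in later GMPs (-5.41 ± 0.51; edgeR adjusted p = 7.83e-11). For both genes LSK was above GMP later and below it at 2 weeks. Itga2b was at 159.2 to 190.6 CPM in 2-week GMPs and at 2.22 to 18.1 CPM in later GMPs (-3.73 ± 0.44; edgeR adjusted p = 3.8e-08).

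Gp49a, an immunoglobulin-like receptor with a near-identical neighbour among which reads can be split, was at 76.4 to 123.3 CPM in 2-week GMPs and at 0 to 1.42 CPM in later GMPs (-6.06 ± 0.93; edgeR adjusted p = 1.71e-05). Gpr34, a lysophospholipid receptor, was at 44.8 to 68.9 CPM in 2-week GMPs and 0 to 2.13 CPM in later GMPs (-4.30 ± 0.87; edgeR adjusted p = 0.0017). Against 4 weeks alone both lost the call (Gp49a -6.78, adjusted p = 0.128, range over 34 alternatives -7.24 to -5.32; Gpr34 -4.57, adjusted p = 0.143, range -5.66 to -3.88). Cd244, a SLAM-family receptor, did not differ past the threshold between the sorts at 2 weeks (-0.23 ± 0.31; edgeR adjusted p = 0.816) and was higher in LSK at the later times by 1.99 (edgeR adjusted p = 1.53e-09). Its difference of differences was -2.22, and against 4 weeks alone it was -1.48 (adjusted p = 0.141; range over 34 alternatives -2.57 to -1.48).

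Immunoglobulin genes were among the largest rises in the difference. Igkc was at 18240 to 54920 CPM in 2-week LSK and at 3.15 to 91.9 CPM in later LSK (7.51 ± 1.22; edgeR adjusted p = 7.08e-04). Ighm was at 2246 to 6532 CPM in 2-week LSK and at 251 to 417.5 CPM in later LSK (4.38 ± 0.51; edgeR adjusted p = 1.34e-05). Igj, at 1.05 to 28.8 CPM in later LSK, did not pass the test (edgeR adjusted p = 0.0756) but passed it with the replicate block (7.16, adjusted p = 1.09e-05). Igj also passed with DESeq2 (7.07, adjusted p = 6.84e-10). In edgeR it passed without 2-week LSK replicate 2 (7.14, adjusted p = 0.0487) or 6-week LSK replicate 1 (6.52, adjusted p = 0.0375). Of the 7 plasma cell genes 4 had a higher difference at 2 weeks.

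The other 4 named among the largest rises (Csf1r, Pyhin1, Tmem178 and Cybb) were genes that GMPs held above LSK at the later times, and that did not differ past the threshold at 2 weeks. Csf1r, the receptor that macrophages need, was at 22.4 to 49.4 CPM in GMPs and 36.1 to 59.3 CPM in LSK at 2 weeks, and at 126.8 to 231.1 CPM in GMPs and 13.1 to 82.2 CPM in LSK later (2.19 ± 0.50; edgeR adjusted p = 0.0135). Pyhin1, an interferon-inducible gene, was at 42.5 to 65.7 CPM in 2-week GMPs and 82.7 to 143.4 CPM in later GMPs (2.34 ± 0.30; edgeR adjusted p = 4.05e-07). Its LSK levels were 69 to 83.8 CPM at 2 weeks and 21.4 to 45.7 CPM later. Tmem178, a membrane protein of calcium control, was at 16.7 to 32.7 CPM in 2-week GMPs and 57.8 to 85.9 CPM in later GMPs (2.88 ± 0.46; edgeR adjusted p = 3.18e-05). Its LSK levels were 15.7 to 21.7 CPM at 2 weeks and 0 to 12 CPM later. In these 3 genes the CPM of the 2-week GMP libraries lay below that of all later ones other than the near-empty library. CPM leaves out the fit's scaling factors, which were 0.745 to 0.804 for 2-week GMPs and 0.955 to 1.000 for those later GMPs. On the fit's scale the 2-week GMP levels therefore lie closer to the later ones.

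Cybb, the catalytic subunit of the phagocyte oxidase, was at 6.41 to 19.2 CPM in 2-week GMPs and 15.7 to 35.7 CPM in later GMPs. In LSK it was at 24.6 to 39.9 CPM at 2 weeks and 3.79 to 16.7 CPM later. LSK thus lay above GMP at 2 weeks without overlap. That 2-week difference passed in edgeR's fit of the 2-week libraries alone with a replicate block (1.31, adjusted p = 0.0184). The difference of differences for Cybb was 2.84 ± 0.74 (edgeR adjusted p = 0.0328). The call for this difference of differences did not hold without 2-week GMP replicate 1 (adjusted p = 0.117) or replicate 2 (0.0888), or without 2-week LSK replicate 1 (0.0906) or replicate 3 (0.0935), with values between 2.58 and 3.38 over 34 alternatives. The call for Csf1r was lost without 2-week GMP replicate 3 (0.0556) or LSK replicate 1 (0.0647), and against 4 weeks alone the difference was 1.76 (adjusted p = 0.218; range over 34 alternatives 1.76 to 2.36). Of 18 monocyte and macrophage genes tested, 7 had a higher difference at 2 weeks and none a lower one, and against 4 weeks alone 1 had.

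Socs2 had another GMP level in each set of mice. It was at 81.7 to 121.1 CPM in 2-week GMPs, at 477 to 663.1 CPM in later GMPs and at 0.5 to 1.97 CPM in WT GMPs. LSK held 589.9 to 762.3 CPM at 2 weeks, 750.2 to 1146 CPM later and 33.8 to 78.6 CPM in WT. The LSK minus GMP difference was larger at 2 weeks than later by 1.87 ± 0.21 (edgeR adjusted p = 1.43e-08), and smaller than in WT by -2.64 (edgeR adjusted p = 6.3e-04). The Flt3 libraries were above the WT libraries of the same sort at each time.

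**Figure D5:**
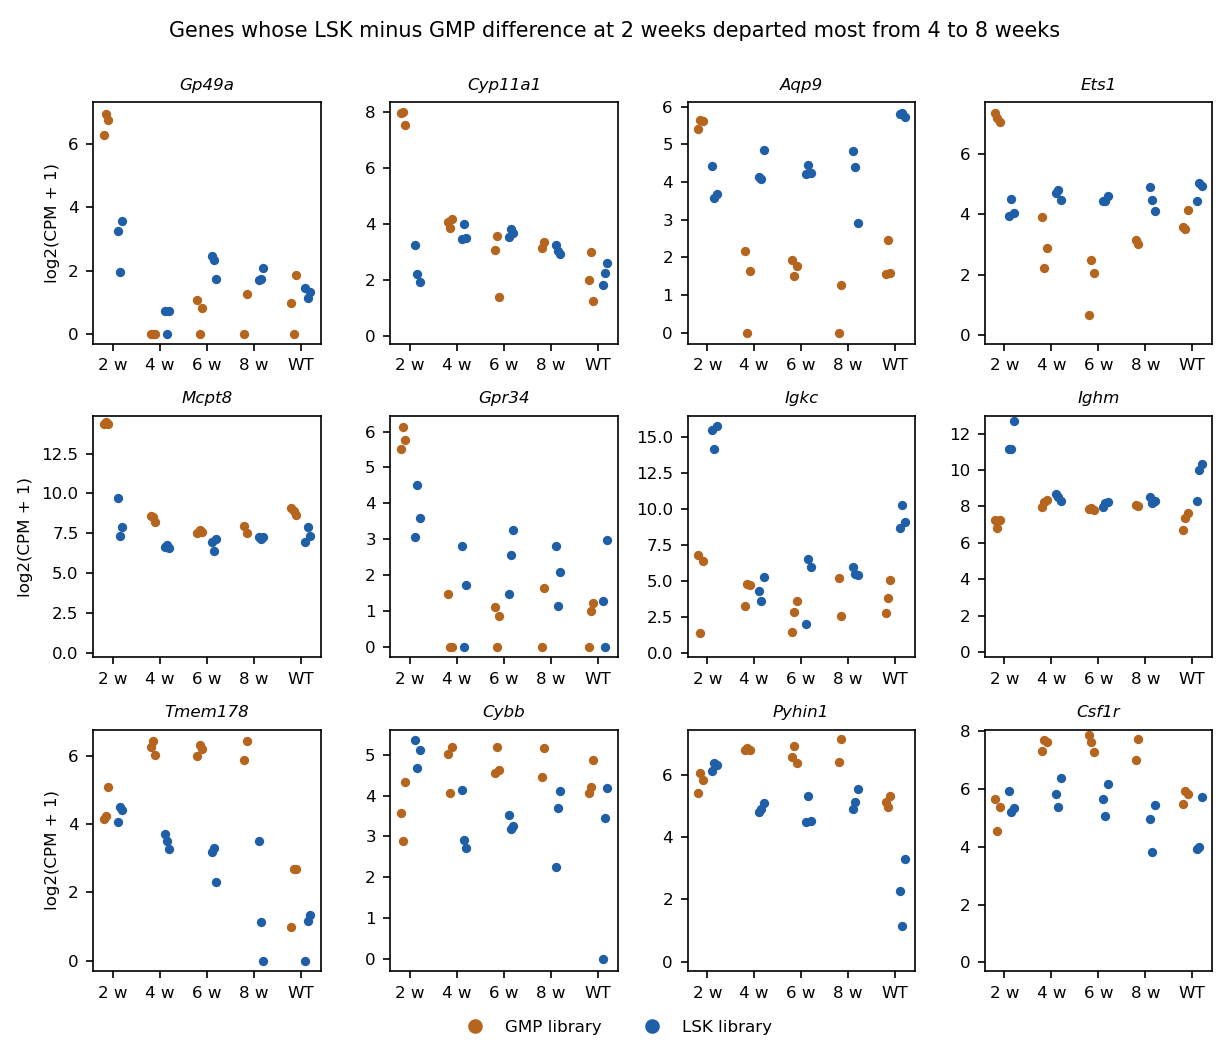
Levels of 12 genes as log2(CPM + 1) in each GMP and LSK library of Flt3 mice at 2, 4, 6 and 8 weeks and of WT mice at 4 weeks; each point is 1 library, without the near-empty 8-week GMP library. For Mcpt8, Cyp11a1 and Ets1 the GMP points at 2 weeks lie above those at 4, 6 and 8 weeks. For Igkc and Ighm the LSK points at 2 weeks lie above the later ones.

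Against WT mice at 4 weeks the LSK minus GMP difference was another in 1309 genes (12.7%), higher at 2 weeks in 641 (6.23%) and lower in 668 (6.49%), with a median over all genes of -0.11. In WT mice alone 3041 genes (29.6%) differed between LSK and GMP, and 475 of the 782 2-week calls were among them (60.7% of the 2-week calls and 15.6% of the WT calls), 417 in the same direction. The 10 basophil and mast cell members with a lower difference, of 17 tested, included Mcpt8 (-4.08; edgeR adjusted p = 3.63e-05), which WT GMPs held at 405.1 to 532.1 CPM. Prss34, at 158.3 to 198.1 CPM in WT GMPs, differed by -5.68 ± 0.88 (edgeR adjusted p = 2.38e-04).

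Gata2 and Itga2b changed sides between the mice. In WT mice Gata2 was at 53.2 to 86.6 CPM in GMPs and 248.5 to 267 CPM in LSK, and Itga2b at 27.5 to 55.3 CPM in GMPs and 127.1 to 186.7 CPM in LSK. At 2 weeks in Flt3 mice the GMP libraries were above the LSK libraries for both (difference of differences -5.45, edgeR adjusted p = 1.67e-11, and -5.50, edgeR adjusted p = 2.25e-13). Of 23 stem cell genes tested, 7 had a lower and none a higher difference than in WT. Primary granule genes had 3 with a higher and none with a lower difference of 14.

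Among the falls against WT outside these groups was Ptplad2 (-6.98 ± 0.60; edgeR adjusted p = 5.69e-12), an enzyme of very long chain fatty acid synthesis. Aldoc, a glycolytic aldolase, was at 0 counts in all 3 WT GMP libraries and at 13.1 to 16.1 CPM in WT LSK, so no fold is given; at 2 weeks it was at 13.3 to 35.2 CPM in GMPs and 7.26 to 21.9 CPM in LSK. Among the largest rises were Igj (4.64 ± 1.06; edgeR adjusted p = 0.00645), Tifab (3.73 ± 0.39; edgeR adjusted p = 1.27e-07), an inhibitor of TRAF6 signalling, and Ly6c2 (3.67 ± 0.49; edgeR adjusted p = 3.63e-05), a monocyte surface antigen. Ly6c2 was lower in LSK than in GMP at 2 weeks (-1.43, edgeR adjusted p = 0.00809; -1.26 and 0.059 without LSK replicate 2, with a range of -1.70 to -1.26 over 22 alternatives) and lower in WT LSK (-5.10; edgeR adjusted p = 1.49e-09). The split of higher against lower calls in this contrast moved with the scaling: 49% were higher with TMM and 19.5% with median-ratio size factors, under which the median of all genes was -0.35. With the same factors and the near-empty library left out, 54.1% of 1415 calls were higher and the median was -0.11.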

How the data were processed

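RNA of sorted LSK and GMP cells was sequenced from libraries of 2 kits, whose use by sample is not given in the sources used here. Reads were aligned with STAR and counted per gene with featureCounts on mm10, per the submitters' processing notes; versions, annotation and the strand setting are not given in the sources used here. The deposited values are whole-number counts per gene, not normalized by the authors, in 1 table of 33924 genes and 30 samples per the file headers, and 0 columns of it were left unmapped. The libraries of the 2-week mice hold 624296 to 8249135 counts, and the intervals and floors printed cover counting error only.

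The counts were fitted with edgeR 4.0.16 (R 4.3.3, limma 3.58.1): TMM scaling, filterByExpr, and a robust quasi-likelihood fit with 1 mean per genotype, time and sort over all 30 libraries, which share 1 estimate of the spread. Tested were LSK minus GMP at 2 weeks, and that difference minus its mean at 4, 6 and 8 weeks or minus that of WT at 4 weeks, with Benjamini-Hochberg adjustment over 10287 genes at a threshold of 0.05. CPM used a library's total counts. The fit was tested on simulated data. There 100 genes were changed 2-fold and 100 were changed 4-fold, all with a mean above 5 CPM. Over the 9930 genes tested the fit made 5 false calls for the 2-week comparison.

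The members and the 37 gene lists (554 symbols, 540 found as such, 8 by a synonym and 6 not found) were chosen with earlier results of these data known. Named genes are the targeted and sort marker genes, the 12 largest rises and falls at 2 weeks and the 6 largest in each direction for each difference of differences (past the threshold, mean log2 CPM of at least 4 over the 6 libraries; at 2 weeks without overlap between the sorts; predicted, pseudo and sex-linked genes passed over), and, of each list, at most 4 genes taken by their p-value from the smallest on. Beyond that rule, members were named as exceptions in a list's count or as listed at 0, after their values were seen.

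The main fit has no block. The labels' codes give the same number, taken as the animal, to an LSK and a GMP library; the deviations from group means of same-code libraries over 6805 genes had correlations of 0.08, 0.11 and -0.10 at 2 weeks and -0.10 to 0.27 over 14 pairs. Alternatives were DESeq2 1.42.0, other size factors, other filters, a replicate block, other sets of libraries, a test against a 2-fold change, and each library left out in turn. Tested replicates of 1 group differed beyond counting noise, so none was counted as a copy.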

Additional observations from a re-analysis of the deposited data

Results flagged for a closer look

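In 15 of the sort markers and the genes with the largest changes, the LSK minus GMP difference at 2 weeks differed from its mean at 4, 6 and 8 weeks (edgeR's test of that difference, adjusted p under 0.05). They are listed for a closer look with the size of the difference of differences on the log2 scale. Those among the 6 largest in each direction were named for passing this test, so their passing it is no finding. Over all 10287 genes tested 2.89% passed it. Basophil and mast cell genes or genes that stood with them in the 2-week GMPs were Mcpt8 (-4.74), Cyp11a1 (-5.72), Cpa3 (-2.58), Itga2b (-3.73), Ets1 (-5.23), Aqp9 (-5.41), Gp49a (-6.06) and Gpr34 (-4.30). Cd244 (-2.22) was higher in LSK than in GMP at the later times and did not differ past the threshold at 2 weeks, and against 4 weeks alone it lost the call (-1.48, adjusted p = 0.141). The immunoglobulin genes were Igkc (7.51) and Ighm (4.38), which were high in the 2-week LSK libraries. Tmem178 (2.88), Cybb (2.84), Pyhin1 (2.34) and Csf1r (2.19) were lower in LSK than in GMP at the later times, and did not differ past the threshold at 2 weeks in the main fit. Mcpt8, Cyp11a1, Itga2b, Ets1, Aqp9, Igkc, Ighm, Tmem178 and Pyhin1 kept the call under all alternatives run. Genes named from the lists or from the WT contrast that also passed this test included Gata2 (-3.40), Cd63 (-2.93), Ier3 (-2.48), Ccl3 (-3.04), Ptplad2 (-3.02), Srgn (-1.27), Cd9 (-1.23), Socs2 (1.87), Sdc1 (6.46), Ly6c2 (2.10), Tifab (1.67) and Bst2 (1.07).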

How the results depend on the processing

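The 782 genes called between LSK and GMP at 2 weeks became 461 with DESeq2 on the 30 libraries (772 without the near-empty 8-week GMP library) and 251 in a test against a 2-fold change. With 1 library or 1 code number left out the count ran from 476 to 716, lowest without replicate 3 of both sorts (492 without replicate 1 of both sorts). The replicate block gave 895 calls, and 629 and 768 calls came from the 2-week libraries alone without and with it. In the 30-library fit the block moved the higher STAT5 and interferon genes at 2 weeks as given above, the higher myeloid fate factors from 1 to 2 and the lower iron-recycling macrophage genes from 0 to 2. The named genes whose call it changed are Cd48, Igj and, for the difference of differences, Ly6a (1.48, adjusted p = 0.00339) and Ly6d (2.40, adjusted p = 0.0122). The 297 genes whose difference changed between 2 weeks and later became 165 with DESeq2 (314 without the near-empty library), 102 against 4 weeks alone, 388 with the block and 208 to 306 with 1 library left out. The 1309 genes against WT became 548 with DESeq2, 1582 with the block and 858 to 1182 with 1 library left out, lowest without WT GMP replicate 1. The cause was not tested, except that leaving out libraries or weeks leaves fewer samples. Scaling by library size alone moved the median at 2 weeks to 0.12 and the higher share of calls from 46.9% to 62.6%. Median-ratio size factors moved the higher share against later times from 38.7% to 26.5%, and to 38.4% with the near-empty library left out. Against WT the higher share was 24.6% with library size alone (median -0.33), 15.9% with DESeq2 and 56.7% with DESeq2 without the near-empty library. An alternative chosen after seeing the data, median-ratio factors without that library, gave 836, 297 and 1415 calls for the 3 contrasts (54.1% higher against WT). No called value of a named gene changed direction under the alternatives run. Depth is uneven: GMP replicate 2 holds 624296 counts.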

Other observations

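S100 and annexin genes, calcium-binding proteins of membranes and the cytoskeleton, differed in both directions between LSK and GMP at 2 weeks, with 2 of 13 tested members higher and 4 lower in LSK. Anxa3 (-2.72; edgeR adjusted p = 1.02e-11) and Anxa1 (-1.93; edgeR adjusted p = 8.26e-10), annexins of granulocytes, were lower, and S100a4 (1.57; edgeR adjusted p = 1.58e-06) and S100a6 (1.10; edgeR adjusted p = 3.03e-06) were higher. The lower count was 2 without GMP replicate 2, LSK replicate 1 or LSK replicate 2. S100a6 differed between the sorts more in WT mice (2.99; edgeR adjusted p = 6.28e-16), with a difference of differences of -1.89 (edgeR adjusted p = 2.7e-06).

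Among 13 erythroid genes tested, Car2, a carbonic anhydrase (1.39; edgeR adjusted p = 0.00233), and Tfrc, the transferrin receptor, were higher in LSK and Gata1 was lower. Tfrc, at 1.24 (edgeR adjusted p = 0.00943), was at 1.17 without GMP replicate 1 (adjusted p = 0.0546). None of the 10 iron-recycling macrophage genes passed edgeR's test at 2 weeks, with 2 at an unadjusted p under 0.05; DESeq2 called 1 lower member and the replicate block 2. Emcn, a sialomucin of endothelial and stem cells, was the 1 member called of 4 stromal and endothelial genes tested (3.73; edgeR adjusted p = 0.00163).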
